A study of Mus musculus with 26 samples.

Results

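The genes described here are the Zfp genes, the mouse zinc finger proteins named by a number, among the genes that the authors listed for the response of E14 mouse embryonic stem cells to retinoic acid (RA). A row of the deposited RNA-seq table was taken where its Ensembl identifier is a protein-coding gene of GRCm38 whose symbol is Zfp followed by a digit, and Zfp42, Zfp703 and Zfp503 were left out. This gave 31 of the 2189 listed genes. E14 is an established mouse embryonic stem cell line, and the labels name no genetic change in it. All groups used here come from this line. Cells in mESC+ were kept in leukemia inhibitory factor (LIF), which maintains pluripotency, and cells in mESC- were deprived of LIF and given 1 µM RA for 4 h. There were 3 RNA-seq libraries and 1 ATAC-seq library per state, and the list of dynamic enhancer regions rests on 1 ChIP-seq library per histone mark and state. Of the pluripotency markers looked up (Pou5f1, Sox2, Nanog, Esrrb, Klf4, Tdgf1, Dppa4, Utf1 and Lin28a), 8 of 9 had an ATAC-seq peak at the gene start in both states, and 3 (Sox2, Klf4 and Tdgf1) were among the listed genes. Ranked within their own list, as explained further on, these 8 peaks ran from percentile 0.147 (Pou5f1) to 69.3 (Utf1) in mESC+. In mESC- they ran from 0.299 to 60.7, at the same genes. Of the markers of other cells, 4 of 5 fibroblast genes, 4 of 4 neural genes and 1 of 4 primitive endoderm genes had such a peak in mESC+, so an open promoter alone did not separate these cell types. Listed among these were 3 fibroblast genes (Thy1, Vim and Pdgfrb), the endoderm gene Gata6 and 0 neural genes. For comparison, 85.7% of all listed protein-coding genes had such a peak in mESC+ and 84.0% in mESC-, and 9.04% of all protein-coding genes were listed.

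Most Zfp proteins bind DNA through tandem C2H2 zinc fingers, in which a pair of cysteines and a pair of histidines hold a zinc ion and each finger reads a few bases. Many of them also carry a KRAB domain, which recruits the corepressor Trim28 and the histone methyltransferase Setdb1, and in embryonic stem cells this machinery keeps retroviral elements silent. Such KRAB genes arose by repeated duplication, so they lie in rows of similar genes, and reads from their copies can be hard to place. RA acts through nuclear receptors that bind DNA as heterodimers.

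The comparison of the states asks which genes and regulatory regions differ after LIF was withdrawn and RA was added. Both changes were made together, so their effects cannot be told apart here. The table of listed genes was made by the authors' own comparison, whose columns were not used here, and values per RNA-seq library are not analysed here. The RNA-seq data therefore gave 1 level per Zfp gene over both states and no direction of the RNA change. A direction between mESC+ and mESC- could be given for the chromatin at the gene starts and for nearby enhancer regions. In such bulk samples, fewer cells of a type and less RNA per cell cannot be told apart.

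To show what the starts of these genes look like, the RefSeq promoters of 6 of them (GRCm38.p6, from 250 bases before to 50 bases after the start, written 5′ to 3′ on the strand of the gene) were chosen. Zfp985 (chr4:147553027-147553326, plus strand) and Zfp961 (chr8:71950816-71951115, plus strand) had the highest RNA levels. Zfp976 (chr7:42642555-42642854, minus strand) had the highest-ranked ATAC-seq peak by fold enrichment, though not by -log10 p, and is a neighbor of Zfp141 (chr7:42505704-42506003, minus strand). Zfp59 (chr7:27838334-27838633, plus strand) had the largest gain of promoter rank in the mESC- peak list over the mESC+ list, and Zfp523 (chr17:28176946-28177245, plus strand) one of the largest losses. Capitals mark matches to GGGCGG (the GC box of SP factors), CCGGAAG (ETS factors), ATGGCG (the core of YY1 sites) and the palindromic consensus of NRF1 (the first run of capitals in Zfp141) on either strand. Zfp976 held none of them.
Zfp985: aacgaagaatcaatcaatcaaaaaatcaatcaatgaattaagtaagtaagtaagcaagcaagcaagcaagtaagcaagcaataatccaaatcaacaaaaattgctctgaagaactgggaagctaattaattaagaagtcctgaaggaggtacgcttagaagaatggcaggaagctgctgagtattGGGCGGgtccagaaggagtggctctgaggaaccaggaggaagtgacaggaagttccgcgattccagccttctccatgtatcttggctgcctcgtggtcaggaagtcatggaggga
Zfp961: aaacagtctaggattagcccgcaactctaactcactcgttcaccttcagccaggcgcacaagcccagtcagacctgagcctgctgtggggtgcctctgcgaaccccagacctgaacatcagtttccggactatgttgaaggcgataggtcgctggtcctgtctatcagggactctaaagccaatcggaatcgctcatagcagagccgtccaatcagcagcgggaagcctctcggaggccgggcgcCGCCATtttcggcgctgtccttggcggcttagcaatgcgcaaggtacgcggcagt
Zfp976: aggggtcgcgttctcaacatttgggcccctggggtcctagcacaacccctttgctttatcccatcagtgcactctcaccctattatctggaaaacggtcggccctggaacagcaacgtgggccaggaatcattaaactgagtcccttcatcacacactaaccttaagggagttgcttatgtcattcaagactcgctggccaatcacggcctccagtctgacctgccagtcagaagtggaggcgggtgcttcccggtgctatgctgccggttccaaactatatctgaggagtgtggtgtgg
Zfp141: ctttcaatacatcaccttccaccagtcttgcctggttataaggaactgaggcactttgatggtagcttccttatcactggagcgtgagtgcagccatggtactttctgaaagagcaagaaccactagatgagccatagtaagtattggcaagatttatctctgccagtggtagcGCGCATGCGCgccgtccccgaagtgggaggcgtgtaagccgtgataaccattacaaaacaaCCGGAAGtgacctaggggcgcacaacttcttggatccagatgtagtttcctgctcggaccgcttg
Zfp59: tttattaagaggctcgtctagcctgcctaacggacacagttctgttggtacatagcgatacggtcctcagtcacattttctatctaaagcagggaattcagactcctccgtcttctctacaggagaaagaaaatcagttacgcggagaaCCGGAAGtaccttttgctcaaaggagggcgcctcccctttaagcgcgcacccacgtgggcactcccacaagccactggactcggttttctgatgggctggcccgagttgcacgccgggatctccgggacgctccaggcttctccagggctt
Zfp523: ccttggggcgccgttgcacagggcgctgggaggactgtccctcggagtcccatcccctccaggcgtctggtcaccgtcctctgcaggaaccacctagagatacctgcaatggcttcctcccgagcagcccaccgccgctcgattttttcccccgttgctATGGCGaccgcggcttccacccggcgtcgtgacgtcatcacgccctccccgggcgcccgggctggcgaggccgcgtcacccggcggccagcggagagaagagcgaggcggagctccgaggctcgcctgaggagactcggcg

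Of the 31 genes, 24 had a promoter in the RefSeq table. GGGCGG occurred in 9 of the 24 (37.5%), beside 35.7% of all 32851 promoters. CCGGAAG was found in 5 (20.8%, all promoters 8.86%), namely Zfp141, Zfp217, Zfp36, Zfp59 and Zfp653. ATGGCG was found in 4 (16.7%, all promoters 8.93%) and the NRF1 consensus in 2 (8.33%, all promoters 0.971%), which were Zfp141 and Zfp653. TATAAA, the letters of a TATA box, occurred in 4 (16.7%, all promoters 13.6%). Direct repeats of GGTCA with 5 or 2 bases between them occurred in none of the 24, and in 0.0761% and 0.222% of all promoters. RA receptors bind repeats of the longer unit AGGTCA, and at these gaps that unit was not searched, so the counts do not cover such sites. The median number of CG dinucleotides was 16.5 per 300 bases, against 7 over all promoters, while the median GC content was 54.7% against 52.7%. These counts are small and no test was made. The 32851 promoters outnumber the 21951 protein-coding genes, so they are not a set matched to the 24, which are all of protein-coding genes. Shares over protein-coding or listed genes alone are not given, so the differences cannot be read as traits of Zfp genes. The RefSeq start lay 5428 bp downstream of the start used for the ATAC-seq values in Zfp217, and 14679 and 98112 bp upstream of it in Zfp607b and Zfp993.

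The label was checked against the proteins, which were translated from RefSeq coding regions on GRCm38.p6. A classical C2H2 finger (C-2-C-12-H-3-H) was found in 24 of the 31 proteins, with a median of 6 fingers, whereas 348 of 387 annotated Zfp proteins (89.9%) had one and their median was 10. The 7 proteins without it were Zfp36, Zfp36l1, Zfp36l2, Zfp385a, Zfp395, Zfp523 and Zfp750. Zfp36, Zfp36l1 and Zfp36l2 carry CCCH fingers and bind AU-rich elements of mRNAs to promote their decay, so they are Zfp genes by name and not DNA-binding C2H2 proteins. With a wider spacing, 4 proteins still lacked a match, the 3 of the Zfp36 family and Zfp750, a regulator of epidermal differentiation. The most matches were counted in Zfp993 (36), Zfp607b (17) and Zfp976 (17), and that of Zfp993 is uncertain because its RefSeq and GENCODE loci do not coincide. A KRAB A box, searched with a pattern widened after the values were seen, was found in 10 of the 31 proteins (32.3%) and in 138 of the 387 annotated Zfp proteins (35.7%). The stricter pattern chosen first matched 1 listed protein, Zfp459, and 50 annotated ones. The listed genes that matched the wider pattern were Zfp1, Zfp141, Zfp459, Zfp809, Zfp961, Zfp976, Zfp985, Zfp991, Zfp992 and Zfp993, where the match of Zfp993 is as uncertain as its finger count. A protein without a match can still hold a KRAB domain that the pattern missed.

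The listed Zfp genes were a small part of the family. GENCODE holds 391 protein-coding genes that meet the symbol rule, of which 31 were listed (7.93%, exact 95% interval 5.45 to 11.1). Among all 21951 protein-coding genes, 9.04% were listed. The share of Zfp genes was thus close to the background, and the remaining 360 Zfp genes were not in the table. Of 18 partners of KRAB proteins looked up, 3 were listed, the de novo DNA methyltransferases Dnmt3a (411 per kb, in the unit given next) and Dnmt3b (3527 per kb) and the retroelement silencing factor Resf1 (1450 per kb). Trim28 and Setdb1 were not in the table.

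The level of each gene was the authors' mean of normalized read counts over the 6 libraries, divided by the exon length in kb. Its median was 366 per kb over the 31 Zfp genes (interquartile range 105 to 442), while the other 1953 listed protein-coding genes had a median of 141 (39.8 to 419). Zfp985 stood at 2135 per kb and was the highest. It was followed by Zfp961 at 1307 and by Zfp809 at 837 per kb. Zfp809 is the KRAB protein that recognizes the primer binding site of murine leukemia proviruses and silences them. Zfp710 reached 638 and Zfp141 reached 584 per kb. Zfp991 (514), Zfp993 (502), Zfp1 (448), Zfp217 (436) and Zfp280c (424) completed the first 10, which lie close together at their lower end. Zfp217 is a C2H2 protein found in corepressor complexes. At the other end were Zfp523, a relative of the transcription factor Zfp143, at 30.6 per kb, Zfp618, a binder of 5-hydroxymethylcytosine, at 24.8 and Zfp467 at 10.8 per kb. The level thus spanned from 10.8 to 2135 per kb, and the authors' mean itself from 45.8 (Zfp467) to 6130 (Zfp985).

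**Figure D1:**
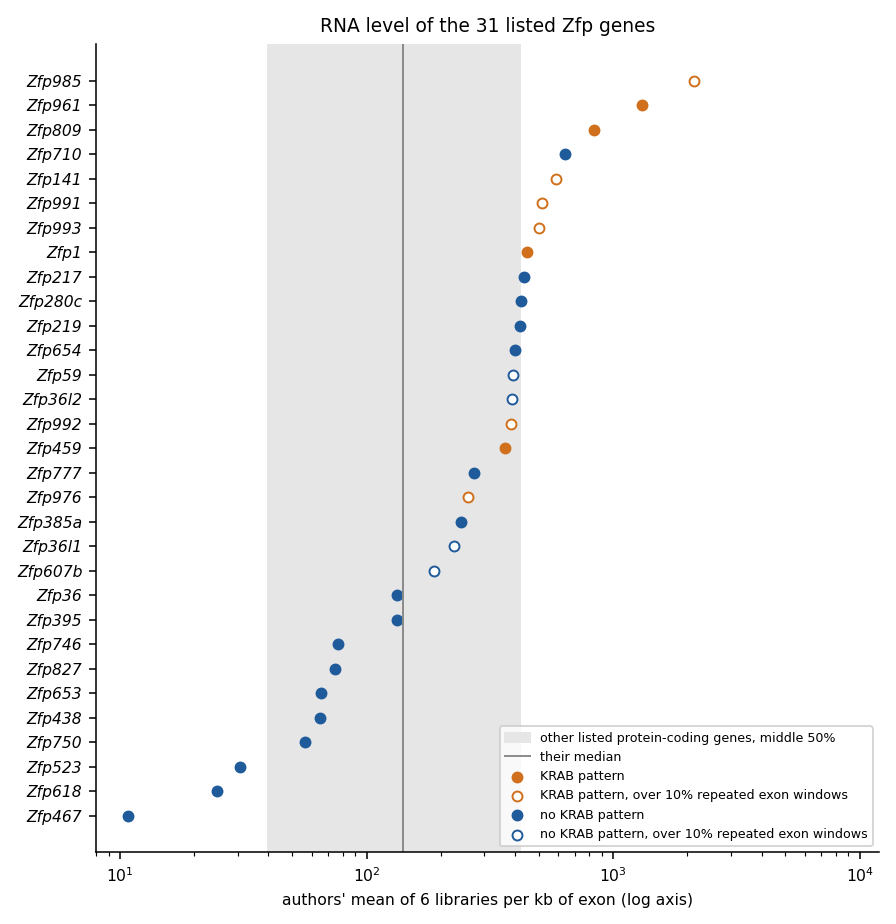
RNA level of the 31 listed Zfp genes, as the authors' mean over 6 libraries per kb of exon (log axis), with the middle 50% and the median of the other listed protein-coding genes in gray. Genes with a KRAB pattern (orange) lie between 258 and 2135 per kb, and open circles mark genes with over 10% of repeated exon windows.

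The 10 genes with a match to the KRAB pattern, which was widened after the values were seen, had a median of 508 per kb (258 to 2135). The 21 without a match had a median of 188 (10.8 to 638), so the ranges overlapped. Since the pattern can miss KRAB domains, this is no comparison of genes with and without the domain. Without the uncertain Zfp993, the 9 other genes with a match had a median of 514 per kb. Of the 10, 6 had over 10% of repeated exon windows, as defined in the account of repeats, and no test was made. Among the genes outside the first 10, Zfp36l2 was at 390, Zfp36l1 at 226 and Zfp36 at 133 per kb. Zfp219 was at 418 and Zfp827, a C2H2 protein that binds the NuRD complex, at 74.7 per kb. Of the genes without a match to the classical C2H2 spacing, the p53 target Zfp385a was at 241, Zfp395 at 132 and Zfp750 at 56.3 per kb. Zfp385a and Zfp395 did match the wider spacing. Within the pairs of chromosomal neighbors described further on, Zfp777 was at 273 and Zfp746 at 76.9 per kb, Zfp607b at 188 and Zfp59 at 393, Zfp653 at 65.5 beside Zfp809 at 837, and Zfp976 at 258 beside Zfp141 at 584. Such pairs thus differed in level up to the contrast of Zfp653 and Zfp809. The remaining genes were Zfp654 at 400, Zfp992 at 387, Zfp459 at 366 and Zfp438 at 65.0 per kb. Each level is a mean over both states with no spread between libraries, so the order of neighboring genes has no error to be judged by.

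Several of these levels rest on sequence that the genome holds more than once. For each gene, the share of 50-base exon windows that occur again in the genome was counted. This is the read length of both the RNA-seq and the ATAC-seq data. The reads were paired, and placement of a read by its mate was not considered, so the share is not that of reads without a place. The share of repeated windows was 89.8% in Zfp993, 89.4% in Zfp991, 75.5% in Zfp992 and 60.1% in Zfp59. It was 28.1% in Zfp976 and 25.5% in Zfp985, and it exceeded 10% in 10 of the 31 genes. Over the other 21 genes the median level was 241 per kb, still above the 141 of the other listed genes. The proteins of Zfp991 and Zfp992 were identical at 567 of 573 aligned residues (99.0%), and each shared 81.6% with Zfp985. How the authors' counting placed reads shared by these copies is not given in the sources used here, so the levels of Zfp991, Zfp992 and Zfp993 are uncertain. Exons of another gene on the opposite strand covered 55.9% of the exon bases of Zfp36l1, 12.7% of those of Zfp219 and 12.5% of those of Zfp459, whose levels can therefore hold reads of a neighbor unless the counting used the strand. On the same strand, where counting by strand does not help, other genes covered 9.54% of the exon bases of Zfp653 and 1.80% of those of Zfp827.

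On the chromosomes, the genes were spread widely. Members were found on 15 chromosomes, with 6 on chromosome 7, 5 on chromosome 4 and 3 each on chromosomes 6 and 8, and with 0 on chromosomes 1, 3, 5, 10 and 19. Chromosome 7 holds 92 annotated Zfp genes and chromosome 4 holds 30, so the listed share was 6.52% and 16.7% there. The start of another listed Zfp gene lay within 250 kb for 10 of the 31 (32.3%, 16.7 to 51.4), as 5 pairs. At 100 kb this was 1 pair (6.45%), and at 500 kb it was 13 of the 31 genes (41.9%). At 500 kb, Zfp467 joined Zfp777 and Zfp746 on chromosome 6, and Zfp991 and Zfp985 on chromosome 4 formed a further pair. An annotated Zfp gene of any kind lay within 250 kb for 15 of the 31 (48.4%) and for 251 of all 391 (64.2%). No 3 listed genes were linked at 250 kb, and 13 of the 31 had no annotated Zfp gene within 1000 kb.

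The pairs differed in how alike their members were. Zfp777 and Zfp746 on chromosome 6 had starts 37.7 kb apart with no other Zfp gene between them, and 46.0% of the aligned residues were identical. Zfp746 is the repressor also known as PARIS, which parkin marks for degradation. Zfp607b and Zfp59 on chromosome 7 were 149 kb apart and had 71.0% identity. Zfp141 and Zfp976, also on chromosome 7, were 137 kb apart with 39.8% identity, and Zfp653 and Zfp809 on chromosome 9 were 154 kb apart with 29.8%. The starts of Zfp992 and Zfp993 on chromosome 4 were 162 kb apart. In 4 of the 5 pairs at least 1 unlisted Zfp gene lay between the listed ones.

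**Figure D2:**
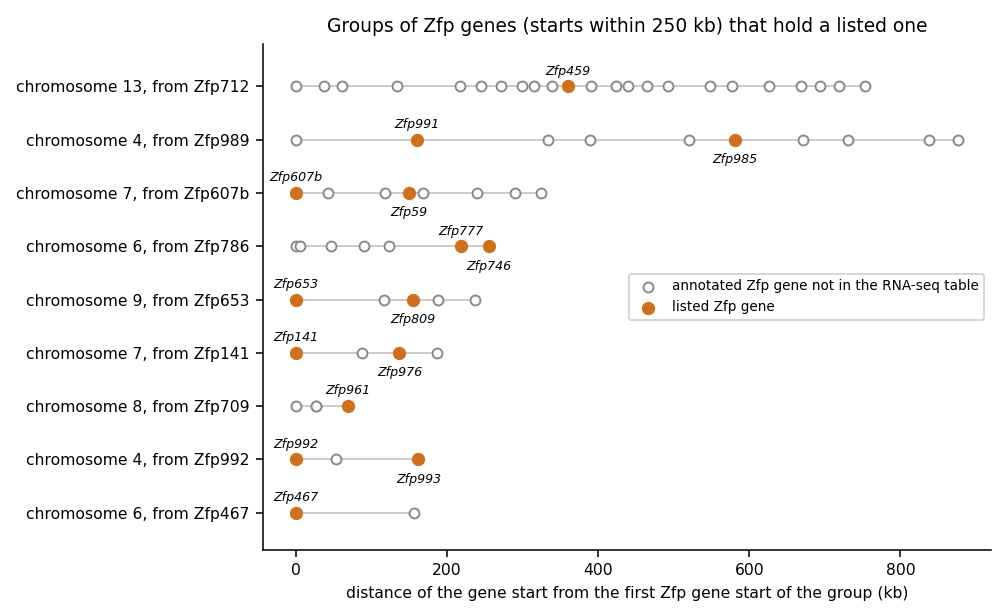
Starts of annotated Zfp genes in each group that holds a listed one, as distance in kb from the first start of the group. Listed genes (orange) are 1 or 2 per group, also in the group of 23 genes on chromosome 13.

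Most groups of annotated Zfp genes held no listed gene, but few Zfp genes were listed anywhere (7.93%). Whether more groups were empty than this share would leave was not tested. When annotated starts were linked within 250 kb, 31 groups of 3 or more genes arose, which hold 207 of the 391 genes (52.9%). Of these, 8 groups contained a listed gene and 6 contained 2. The listed share was 6.76% (14 of 207) inside such groups and 9.24% (17 of 184) outside, beside 9.04% of all protein-coding genes. The group of 23 genes on chromosome 13 held 1 listed gene, Zfp459. The 14 genes inside groups had a median level of 390 per kb, 9 of them matched the wider KRAB pattern (8 without Zfp993) and their median finger count was 10.5. The 17 genes outside had a median of 226 per kb, 1 matched that pattern (Zfp1) and the median finger count was 2. The median share of repeated exon windows was 13.1% inside and 0.318% outside.

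Chromosome 4 held the longest row. At a limit of 1000 kb, Zfp992, Zfp993, Zfp991 and Zfp985 formed 1 stretch of 1104 kb on the plus strand with 5 unlisted Zfp genes between them. The 2 groups that make up this stretch and its flank contain 13 annotated Zfp genes, and the median share of repeated exon windows over these was 72.9%. A peak at the gene start was found in mESC+ for 5 of the 13, among them Zfp985 and no other listed gene. All 5 ranked lower in mESC- (median difference of the percentile, explained next, -22.4). In the full lists this is also the more frequent direction among all listed protein-coding genes, at 59.0%. Among unlisted Zfp genes, to which 4 of the 5 belong, 160 of the 303 that differed ranked lower. Zfp985 was at 91.4 in mESC+ and 80.7 in mESC-. The unlisted genes with a peak were Zfp981 (68.6 and 46.5), Zfp988 (44.8 and 9.03), Zfp933 (67.0 and 44.6) and Zfp984 (26.3, with no peak in mESC-). The direction of these 5 was the same when peaks were ranked by -log10 p, taken at any transcript start or ranked in lists of equal length. In lists of equal length, however, 58.4% of the listed protein-coding genes that differed ranked higher in mESC-. This stretch was singled out after its values were seen, and 1 library per state gives no replicate check.

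Accessible chromatin at the gene starts was read from the authors' ATAC-seq peaks, 163484 in mESC+ and 141465 in mESC-. Since the lists come from separate libraries, each peak was given the percentile of its fold enrichment within its own list, and a promoter (500 bp to each side of the GENCODE start) received that of its best peak, or 0 without a peak. In mESC+, 26 of the 31 Zfp promoters had a peak (83.9%, exact 95% interval 66.3 to 94.5), against 85.7% of all listed protein-coding genes. In mESC-, 24 had one (77.4%, 58.9 to 90.4), against 84.0%. Among the 360 unlisted Zfp genes, the shares were 83.9% and 82.2%. These intervals cover counting error over genes and no variation between libraries.

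**Figure D3:**
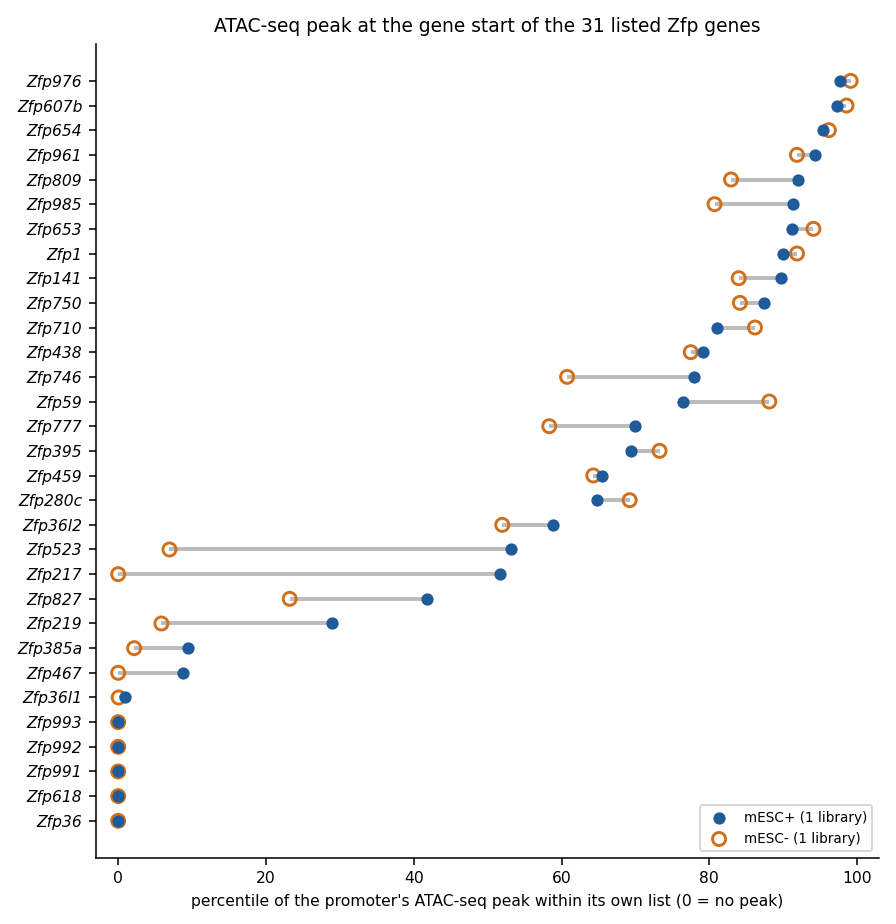
Percentile of the ATAC-seq peak at each gene start within its own peak list, in mESC+ (filled) and mESC- (open), with 1 library each and 0 for no peak. Zfp523 and Zfp217 show the largest losses of rank, and 5 genes have no peak in either state.

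The strongest promoters were open in both states. Zfp976 was at percentile 97.7 in mESC+ (fold enrichment 17.7) and 99.1 in mESC- (19.0). Zfp607b was at 97.2 (17.3) and 98.6 (17.9), and Zfp961 at 94.3 and 91.9. Zfp654 (95.3 and 96.2), Zfp750 (87.4 and 84.1) and Zfp438 (79.1 and 77.5) also kept a high rank in both libraries. Zfp459 (65.4 and 64.3) lay near the medians of the 31 promoters, 69.5 and 64.3. Zfp36l2 was at 58.8 and 52.0. At the low end of the values at the GENCODE start, Zfp385a was at 9.39 and 2.16, and Zfp467 was at 8.82 in mESC+ with no peak in mESC-. At another annotated start, however, Zfp385a was at 82.3 and 64.2 and Zfp467 at 71.6 and 74.2. Zfp36l1 had only weak peaks, at 0.924 and 0.0636, although its RNA level was 226 per kb. No peak in either state was found at Zfp36, Zfp618, Zfp991, Zfp992 and Zfp993. Zfp36 had a peak at another annotated transcript start, at 55.5 in mESC+ and 37.5 in mESC-, whereas the other 4 had none at any start.

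Of the 26 promoters whose percentile differed, 9 ranked higher in mESC- (34.6%, 17.2 to 55.7) and 17 ranked higher in mESC+. Among all listed protein-coding genes, 41.0% ranked higher in mESC- and 59.0% in mESC+, so the Zfp genes did not stand apart from this background at this number of genes. Among unlisted Zfp genes the share was 143 of 303 (47.2%). The split depended on the peaks taken. The mESC+ list is longer, and with both lists cut to their 141465 strongest peaks, 13 Zfp promoters ranked higher in mESC- and 12 lower (52.0% higher), while 58.4% of those of all listed genes ranked higher. With the 50000 strongest peaks of each list, 58.8% of the Zfp promoters that differed ranked higher in mESC-, as did 57.2% of those of all listed genes. The median percentile of the Zfp promoters was 69.5 in mESC+ and 64.3 in mESC-, that of the other listed genes 64.8 and 60.2, and that of the unlisted Zfp genes 83.5 and 84.0, all in lists of unequal length.

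The promoters that lost most rank from the mESC+ list to the mESC- list were those of Zfp217, Zfp523, Zfp219, Zfp827 and Zfp746. These are differences of rank between 1 library each and not of peak height. The Zfp217 promoter was at 51.7 in mESC+ and had no peak in mESC-. Zfp523 went from 53.1 to 6.94 and Zfp219 from 28.9 to 5.85. Zfp827 went from 41.8 to 23.2 and Zfp746 from 78.0 to 60.8. In lists of equal length, all 5 still ranked lower in mESC-, with mESC+ percentiles of 44.2 for Zfp217, 45.8 for Zfp523, 17.8 for Zfp219, 32.7 for Zfp827 and 74.5 for Zfp746. These genes have several annotated starts, and over the best peak at any start Zfp217 went from 64.2 to 36.9, Zfp219 from 50.3 to 37.3 and Zfp523 from 69.3 to 68.6. Zfp827 then went the other way, from 41.8 to 53.5. The direction changed in this way for 2 genes, Zfp827 and Zfp467, and with any start 11 promoters ranked higher and 16 lower in mESC-. Zfp746 kept its values. At Zfp523 and Zfp827, the large loss was therefore seen at the GENCODE gene start and not over the best peak of all starts.

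The promoters that gained most rank were those of Zfp59, Zfp710, Zfp280c, Zfp395 and Zfp653, and gains and losses cannot be set against each other in size because the lists differ in length and a missing peak counts as 0. Zfp59 went from 76.5 in mESC+ to 88.1 in mESC-, Zfp710 from 81.1 to 86.2 and Zfp280c from 64.8 to 69.2. Zfp395 went from 69.5 to 73.3 and Zfp653 from 91.2 to 94.1. In lists of equal length these 5 also ranked higher in mESC-. Among the pairs of neighbors, both members ranked lower at Zfp777 (69.9 and 58.3) and Zfp746 and both ranked higher at Zfp607b and Zfp59. In the pairs of Zfp141 and Zfp976 and of Zfp653 and Zfp809, the members went opposite ways, with Zfp141 at 89.8 and 84.0 and Zfp809 at 92.0 and 82.9.

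**Figure D4:**
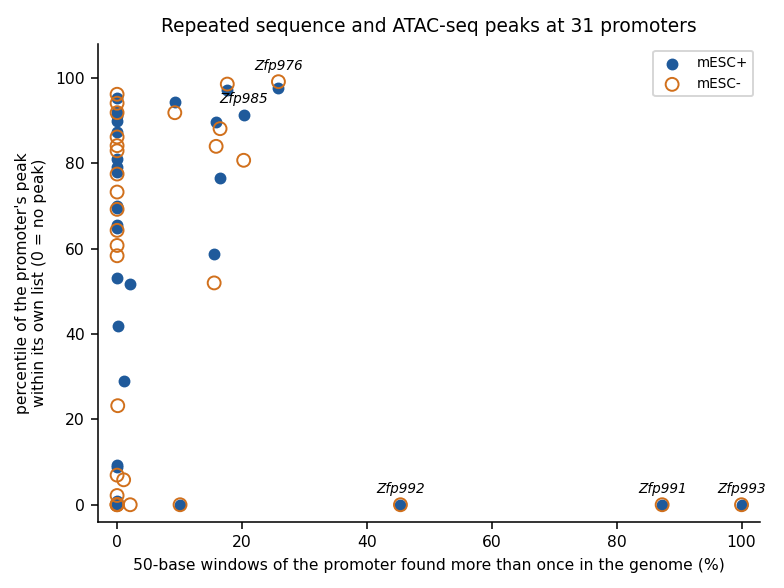
Share of 50-base promoter windows that occur more than once in the genome against the percentile of the promoter's peak, for the 31 Zfp genes in mESC+ (filled) and mESC- (open). The promoters of Zfp991, Zfp992 and Zfp993 are 45.4% or more repeated and have no peak.

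Promoters with much repeated sequence often lacked a peak. In Zfp993, 100% of the 50-base promoter windows occur again in the genome, in Zfp991 87.3% and in Zfp992 45.4%. Of the 4 Zfp promoters with over 25% of such windows, 1 had a peak in mESC+ (Zfp976, 25.8%), against 16 of 17 with 0%. A missing peak at the GENCODE start was not limited to repeated promoters. Zfp618 (0%) and Zfp36 (10.1%) had none there in either state, and Zfp467 (0%) and Zfp217 (2.10%) had none there in mESC-. At another annotated start, Zfp36, Zfp467 and Zfp217 had a peak in both states. Outside the listed Zfp genes, with over 25%, 23 of 49 unlisted Zfp promoters and 12 of 31 promoters of other listed genes had a peak in mESC+. Without the 4 promoters, 92.6% of the Zfp promoters had a peak in mESC+ and 85.2% in mESC-. Whether reads were lost at these copies was not tested, and the missing peaks at Zfp991, Zfp992 and Zfp993 cannot be read as closed chromatin.

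**Figure D5:**
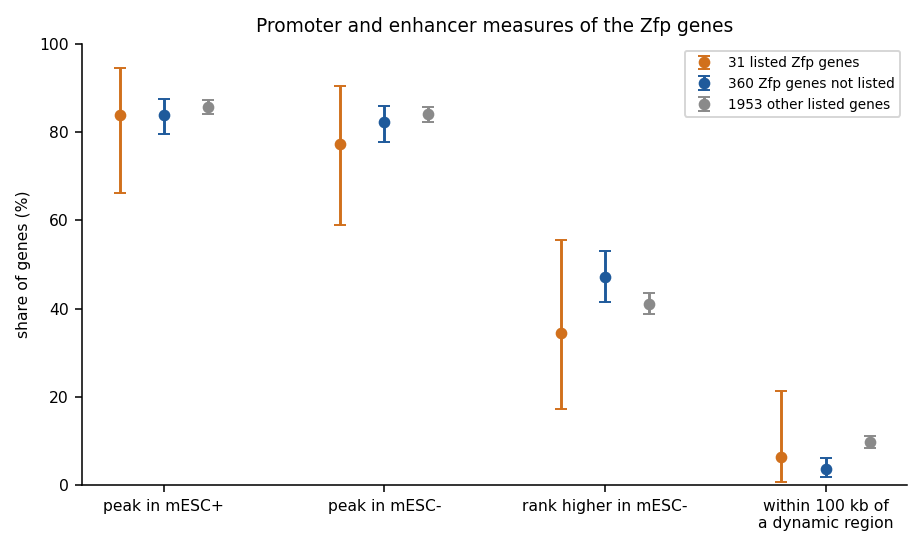
Share of genes with a promoter peak in each state, with a higher promoter rank in mESC- (of those that differ) and with a dynamic region within 100 kb, for 31 listed Zfp genes, 360 unlisted ones and 1953 other listed genes. Bars are exact 95% intervals for counting error, and those of the listed Zfp genes overlap those of the other listed genes in all 4 measures.

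Few of the Zfp genes lay near an enhancer that changed between mESC+ and mESC-. The authors' list holds 327 dynamic regions, each with an enhancer probability between 0 and 1 in both states. The center of such a region lay within 100 kb of the start for 2 of the 31 genes (6.45%, 0.791 to 21.4), against 9.78% of all listed protein-coding genes and 3.61% of the unlisted Zfp genes. Within 500 kb, it was 25.8% of the Zfp genes and 23.8% of all listed genes.

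The 2 genes were Zfp523 and Zfp1. The region near Zfp523 lies 36.1 kb from its start at chr17:28213001-28213500, inside the gene Def6, and its probability was 0 in mESC+ and 0.813 in mESC-. No ATAC-seq peak overlapped it in either state. The starts of Def6 and of Ppard, which encodes a nuclear receptor, are closer to it, and both genes were listed. The region near Zfp1 lies 69.3 kb from its start at chr8:111573601-111574600, inside Znrf1, and its probability was 0.874 in mESC+ and 0.0249 in mESC-. The peak at this region was at percentile 99.1 in mESC+ and 99.8 in mESC-, so its accessibility stayed among the highest in both libraries. Here 3 other protein-coding genes had closer starts, and none of them was listed. The Zfp1 promoter was at 90.0 and 91.9. Just outside the limit, the center of a region that went from 0 to 0.98 lay 104 kb from the start of Zfp36. That region overlaps Samd4b, and 8 protein-coding genes, the listed Lrfn1 among them, had closer starts. With 1 library per mark and state, these differences have no replicate check.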

How the data were processed

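The members and gene lists were chosen with earlier results of these data known. RNA-seq, ATAC-seq and the list of dynamic regions from E14 cells were used. For RNA-seq, the authors mapped reads to GRCm38 with BWA-MEM and compared the states with DESeq2. From their deposited table, the mean normalized count was used as a signal pooled over 6 libraries, and the 5 columns of their own comparison (log2 fold change, standard error, statistic, p-value and adjusted p-value) were not, nor was the lowest p-value of each dynamic region. ATAC-seq peaks are those that the authors obtained from every library by MACS2, deposited with a fold enrichment (a ratio) and −log10 p and q values. For dynamic regions, the authors computed enhancer probabilities, fractions between 0 and 1, with CRUP from histone ChIP-seq. Read totals are unknown, so intervals (exact Clopper-Pearson, 95%) cover counting error over genes.

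Gene starts and exons came from GENCODE M21, promoters and coding regions from RefSeq on GRCm38.p6, and an overlap of 1 bp counted. Levels were divided by the union of exons. Repeated windows had 50 bases on either strand of the assembled chromosomes. No test was run, since no result has values per replicate. Named genes were those highest and lowest in level (10 and 3), the 5 largest rises and falls of promoter percentile, those near a dynamic region, those of a list of Zfp genes with known functions, those with the most or no C2H2 patterns and the listed KRAB partners. Their neighbors, the remaining members and the genes of chromosome 4 were added after their values were seen. The counting of repeats, the looser KRAB pattern, the rank at any transcript start and the lists of equal length were also chosen after seeing the data. On simulated data with known answers, the scripts passed 13 of 13 checks. The tools were Biopython 1.88, matplotlib 3.10.9, NumPy 2.4.6, pandas 2.3.3, pysam 0.24.0 and SciPy 1.17.1 under Python 3.11.15.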

Additional observations from a re-analysis of the deposited data

How the results depend on the processing

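No paired analysis was possible because gene levels are pooled means and the other data have 1 library per state, and for the same reason no replicate could be left out. Of 30 alternatives, 25 (5 of them added after seeing the data) left a share inside its exact interval, a count within 1.5 times or a median level inside the interquartile range of the levels, and 5 moved a share further. The median level fell from 366 to 241 per kb over the genes with little repeated sequence, and the share of promoters that ranked higher in mESC- went from 34.6% to 52.0% in lists of equal length. With starts within 100 kb, 6.45% of the Zfp genes had another listed one nearby. With the 50000 strongest peaks of each list, 51.6% of the promoters had a peak in mESC+ and 48.4% in mESC-, and 58.8% of those that differed ranked higher in mESC-. Within 500 kb, 25.8% lay near a dynamic region. By construction, these alternatives count fewer peaks or use other distances. The looser KRAB pattern matched 10 proteins in place of 1. Depth is unknown for every library and could not be set against any of these values.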
